A study of Mus musculus with 6 samples.

Results

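Sarcomeric myosin light chains and the kinases that act on them were followed as 8 genes, *Myl1*, *Myl3*, *Myl4*, *Myl6b*, *Myl2*, *Mylpf*, *Mylk2* and *Mylk4*, among 46078 genes in the count table. They were picked by symbol with their KO against WT difference already known (*Myl2* higher and *Myl1* lower in KO), so their levels are described here without a test. RNA was sequenced from C2C12 cells, an immortalized mouse myoblast line that stops dividing and fuses into myotubes when serum is withdrawn, after 2 days of differentiation with an ITS supplement. The groups were 3 libraries of *Hnrnpa2b1* KO cells (KO1 to KO3) and 3 of WT cells (WT1 to WT3), on the same C2C12 background. *Hnrnpa2b1* encodes an RNA-binding protein that takes part in splicing. The KO was made with CRISPR-Cas9 and puromycin selection, and the methods describe 3 independent clones of each genotype picked with cloning rings, without stating which clone gave which library. Nothing further in the labels says that the libraries are separate cultures, so the p-values below measure the spread between these samples, which includes any difference between clones.

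Each myosin head in a sarcomere carries an essential and a regulatory light chain wrapped around the lever arm of the heavy chain. The essential chains are *Myl1* (fast fibres), *Myl3* (slow fibres and ventricle), *Myl4* (embryonic muscle and atrium) and *Myl6b* (slow and non-muscle myosin). The regulatory chains are *Mylpf* (fast fibres) and *Myl2* (slow fibres and ventricle), and calcium-calmodulin dependent kinases such as *Mylk2*, the skeletal muscle light chain kinase, phosphorylate a serine near their N-terminus. *Mylk4* is a related kinase gene of striated muscle.

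The serine is what connects the kinases with the regulatory chains, so its codon is shown with the coding bases around it, from the GENCODE transcripts on GRCm38. Capitals mark the serine codon. It is codon 15 of *Myl2* (chr5:122101788-122101790, plus strand, exon 2) and codon 16 of *Mylpf* (chr7:127212903-127212905, plus strand, exon 2). *Myl9* and *Myl12a*, the smooth and non-muscle regulatory chains, carry it as codon 20 and are given for comparison (chr2:156778602-156778604, plus strand, and chr17:70996821-70996823, minus strand, both exon 2).
Myl2: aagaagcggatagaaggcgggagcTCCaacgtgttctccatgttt
Mylpf: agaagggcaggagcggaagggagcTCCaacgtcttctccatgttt
Myl9: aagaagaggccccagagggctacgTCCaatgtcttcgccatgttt
Myl12a: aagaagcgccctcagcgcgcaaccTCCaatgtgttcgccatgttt
The serine codon was TCC in each of these 4 chains. Over the whole coding sequence *Myl2* and *Mylpf* were 70.1% identical, and their longest shared run was 20 bases. Among the other pairs of the 8 genes within a class the longest shared run was 29 bases, between *Myl3* and *Myl4*, and *Myl6b* shared 46 with the non-muscle chain *Myl6*, so that mismatches lie along the whole of these coding sequences.

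*Myl1* makes a long and a short essential chain from separate first exons, on chr1 on the minus strand. Myl1-201 starts at chr1:66944903-66944905 and codes for 188 residues, and Myl1-202 starts at chr1:66935276-66935278 and codes for 150. The first 60 coding bases are given with the start codon in capitals, since the gene-level values cannot separate these forms.
Myl1-201: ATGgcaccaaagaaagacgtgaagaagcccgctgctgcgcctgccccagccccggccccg
Myl1-202: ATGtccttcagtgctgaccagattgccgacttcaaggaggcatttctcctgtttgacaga
Every *Myl1* value below is the gene-level sum over its 8 annotated transcripts.

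E-boxes of the sequence CAGCTG, which bind myogenic bHLH factors such as MyoD and myogenin, were searched because several of these genes moved together. RefSeq promoter windows of 300 bases on GRCm38 matched 7 of the 8 genes, with no entry for *Mylk2*. The motif is its own reverse complement, so a single search covers both strands. It was found in the windows of 4 of the 7 genes, against 16.4% of 32544 promoter windows, and a gene can have several windows. Of 3 further motifs searched, CATTCC on either strand was in 2 of the 7 (14.6% of all windows), a MEF2 site in 1 (3.16%) and a CArG box in 1 (1.64%). The windows with a match upstream of the start site are shown on the gene's strand, with the E-box in capitals, at chr1:66945263-66945292 (minus), chr5:122093047-122093076 (plus), chr7:127211545-127211574 (plus) and chr13:32784011-32784040 (minus), in the order of the lines.
Myl1: aggtacgtctgtCAGCTGtcaccaaaccaa
Myl2: caggtcaggccaCAGCTGtcgctggcatct
Mylpf: cttcctgggctcCAGCTGctgcaggcctcc
Mylk4: ctaaggaaggaaCAGCTGagcaacatgagc
The *Myl2* window lies before a RefSeq start 7762 bases upstream of the gene start in the deposited annotation. The motif thus occurred both in *Myl1* and *Mylk4*, which were lower in KO, and in *Myl2*, which was higher. A match is a description of the letters and not of binding.

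The libraries held 36417517 to 40558740 counted reads in KO and 33605258 to 39134651 in WT. Counts are given as CPM, reads relative to the size of the TMM-scaled library (trimmed mean of M-values), with KO1, KO2, KO3 and WT1, WT2, WT3 always in that order, and levels of different genes are compared only as TPM, which also corrects for transcript length. *Hnrnpa2b1* itself was at 159, 195 and 249 CPM in KO and 225, 229 and 252 CPM in WT. Its groups overlapped (log2 fold change −0.23, SE 0.18, adjusted p = 0.381, edgeR), so the RNA level does not check the labels, and KO and WT are used as labelled. The methods state that loss of the protein was checked in the KO clones by immunofluorescence and Western blotting. KO1 stood apart from KO2 and KO3 for the light chain genes. The median difference of the 7 tested genes from the WT mean was −0.13 on the log2 scale in KO1, −1.58 in KO2 and −1.65 in KO3. The median over all tested genes was 0.02 in each, but TMM scaling holds that median near 0. KO1 was also apart over all tested genes. Its log2 CPM correlated at 0.9636 with KO2 and 0.9644 with KO3, against 0.9765 between KO2 and KO3. Lower RNA in a bulk library can come from fewer cells that express a gene or from less RNA per cell, which cannot be told apart here.

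Differences between KO and WT are log2 fold changes with standard errors (SE) from edgeR's quasi-likelihood fit, and a gene was called where its p-value, adjusted by Benjamini-Hochberg over 14828 tested genes, was under 0.05. Over all tested genes 22.7% were called, 12.1% higher and 10.6% lower in KO. Of the 8 genes 7 passed the filter on low counts and 3 of these were called, 1 higher (*Myl2*) and 2 lower (*Myl1* and *Mylk4*). Because the genes were chosen on this contrast, nothing is read from that count. The CPM of KO and WT did not overlap for 4 of the 7 (*Myl1*, *Myl2*, *Mylk2* and *Mylk4*), against 44.3% of all tested genes. The median log2 fold change of the 7 genes was −0.97, against 0.03 for all tested genes. It was −1.63 without KO1.

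**Figure D1:**
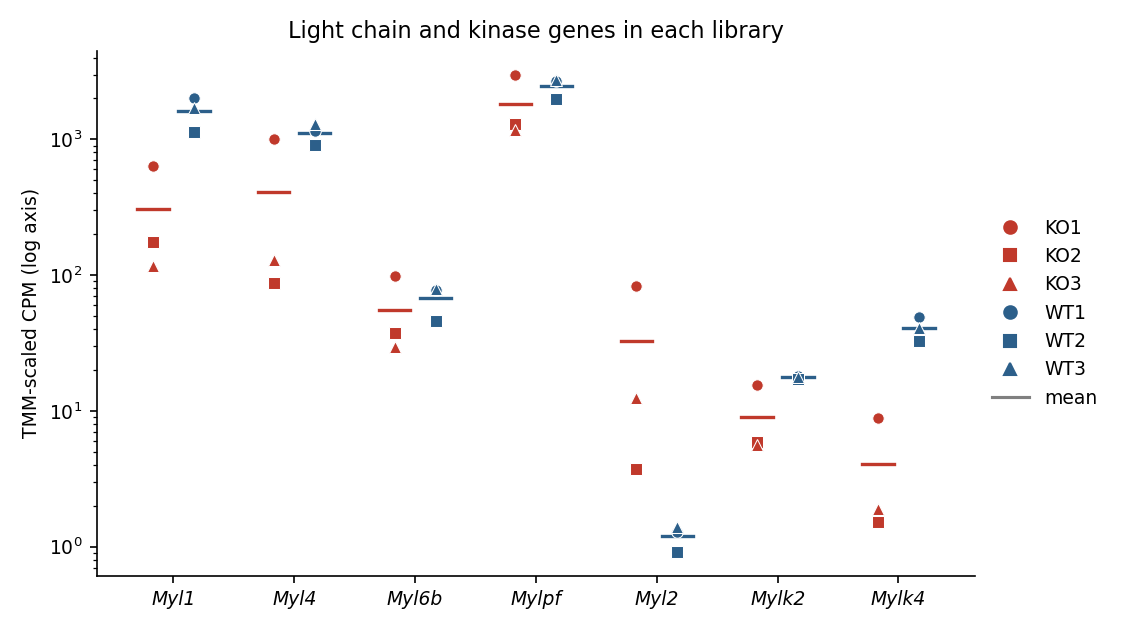
TMM-scaled CPM (log axis) of the 7 tested genes in each of the 3 KO libraries (red) and 3 WT libraries (blue); marker shapes give the library and bars the mean. *Myl2* was at 3.73 CPM or more in KO and at most 1.4 in WT, KO1 was the highest KO library for every gene shown, and the KO points of *Myl1* and *Mylk4* lie below all WT points.

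Among the regulatory chains, *Myl2* (ENSMUSG00000013936, chr5:122100951-122113472, plus strand) was nearly silent in WT. It had 44, 30 and 52 counts in WT and 2955, 163 and 507 counts in KO. In CPM this was 1.27, 0.914 and 1.4 in WT and 82.7, 3.73 and 12.4 in KO. Each KO library lay above each WT library, but the KO libraries differed among themselves far more than the WT libraries did, with 32.9 ± 43.3 CPM in KO and 1.20 ± 0.252 in WT (SD, n = 3 each). The ratio of the mean CPM was 27.5 and the log2 fold change was 4.77 (SE 1.09). Without KO1 the log2 fold change was 2.74 (SE 0.48). Exons of *Myl2* share 60 bases, 3.08% of their length, with *Ccdc63* on the opposite strand, which was at most at 0.244 CPM in any library.

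*Mylpf* (ENSMUSG00000030672, chr7:127211608-127214298, plus strand), the fast regulatory chain, was the most abundant of the 8 genes in every library. Its TPM were 2394, 1085 and 1162 in KO and 2403, 1817 and 2279 in WT. KO1 reached the WT level, whereas KO2 and KO3 lay below every WT library. The mean was 1547 ± 735 TPM in KO and 2166 ± 309 in WT (SD, n = 3 each), with a log2 fold change of −0.44 (SE 0.38). Without KO1 the log2 fold change was −1.02 (SE 0.23).

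Compared as TPM, *Mylpf* exceeded *Myl2* 1874-fold, 2061-fold and 1702-fold in WT, and 30.1-fold, 292-fold and 80.9-fold in KO. *Myl2* made up 0.0533%, 0.0485% and 0.0587% of the summed regulatory chain TPM in WT and 3.21%, 0.341% and 1.22% in KO. The KO libraries were all above the WT libraries, and in KO1, the KO library with the largest *Myl2* share, *Mylpf* still provided 96.8%. The mean share of *Myl2* differed by 1.54 percentage points, by 0.728 without KO1 and by 2.16 without KO2.

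Among the essential chains, *Myl1* (ENSMUSG00000061816, chr1:66924295-66945404, minus strand) was at 634, 176 and 116 CPM in KO and at 2023, 1125 and 1703 CPM in WT. The groups did not overlap, and the highest KO library, KO1, was well under the lowest WT library. The mean was 309 ± 284 CPM in KO and 1617 ± 455 in WT (SD, n = 3 each), 5.24 times higher in WT, and the log2 fold change was −2.39 (SE 0.61). Without KO1 it was −3.47 (SE 0.34). In TPM the order was the same, with 553, 155 and 121 in KO and 2026, 1114 and 1562 in WT.

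*Myl4* (ENSMUSG00000061086, chr11:104550663-104595753, plus strand), the embryonic chain, split the KO libraries. It was at 1013, 88.0 and 130 CPM in KO and at 1150, 905 and 1302 CPM in WT. KO1 lay within the WT range and the other two KO libraries lay far below it. The log2 fold change was −1.45 (SE 0.83), and without KO1 it was −3.37 (SE 0.27). In TPM, where KO1 was at 685 and the lowest WT library at 709, the groups just failed to overlap.

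*Myl6b* (ENSMUSG00000039824, chr10:128494157-128498685, minus strand) was at 98.2, 37.1 and 29.6 CPM in KO and at 78.1, 45.8 and 78.6 CPM in WT. KO1 was above all WT libraries and KO2 and KO3 were below them. The log2 fold change was −0.30 (SE 0.44). Its direction rested on single libraries, with −1.02 (SE 0.25) without KO1 and 0.01 without KO3.

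*Myl3* (ENSMUSG00000059741, chr9:110741861-110769798, plus strand), the slow essential chain that is paired with *Myl2* in slow fibres and ventricle, was at the detection limit in both genotypes. It had 4, 0 and 0 counts in KO and 2, 1 and 1 in WT. A count of 0 allows up to 3 counts in a library, so no fold change is given and a difference was not detectable at this depth.

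The summed TPM of the 4 essential chains were 1296, 240 and 253 in KO and 2965, 1857 and 2535 in WT. The highest KO library was below the lowest WT library. The summed TPM of both regulatory chains overlapped, with 2474, 1088 and 1177 in KO and 2405, 1818 and 2280 in WT. The ratio of essential to regulatory chain TPM was therefore 0.524, 0.220 and 0.215 in KO against 1.23, 1.02 and 1.11 in WT. It was near parity in WT and lower in each KO library, KO1 included, with means of 0.320 ± 0.177 in KO and 1.12 ± 0.106 in WT (SD, n = 3 each). The ratio covers only these sarcomeric chains and not all light chains of the cells. The essential chain *Myl6*, left out of it, was at 524, 656 and 692 TPM in KO and 555, 559 and 501 in WT. Regulatory chains such as *Myl9* and *Myl12a* are left out too. *Myl1* relative to *Mylpf*, the pair of fast chains, had TPM ratios of 0.231, 0.143 and 0.104 in KO and 0.843, 0.613 and 0.686 in WT. These ratios are not a separate observation, since *Myl1* is a large part of the essential sum and *Mylpf* nearly all of the regulatory sum. *Myl1* was also chosen with its lower level in KO known, which enters both ratios.

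**Figure D2:**
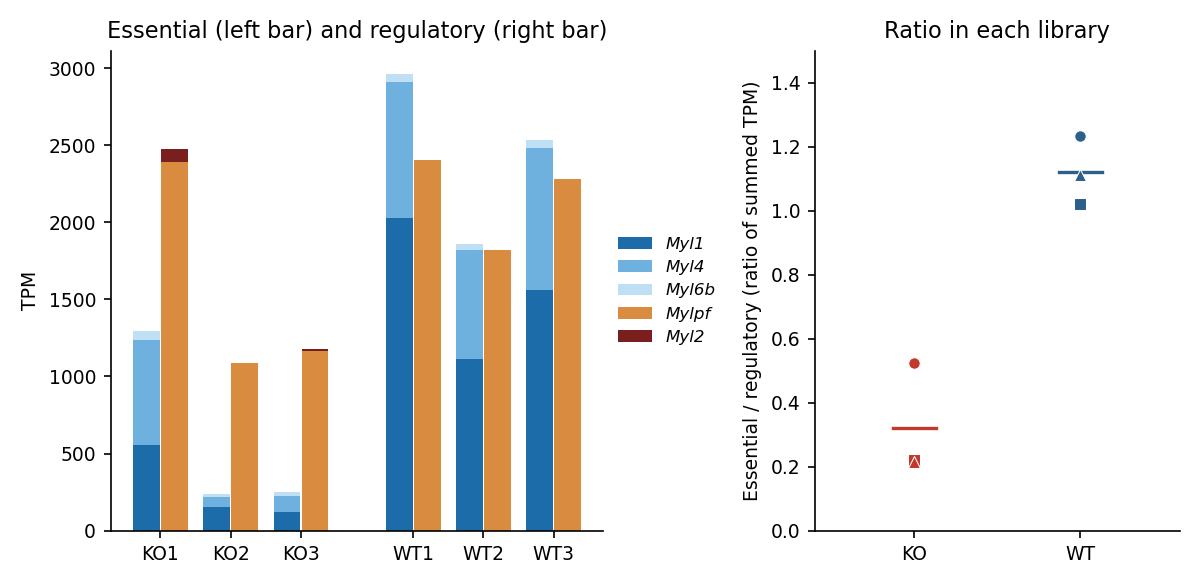
Left, stacked TPM of the essential chains (blue shades, left bar) and the regulatory chains (orange and dark red, right bar) in each library; *Myl3* is too low to be drawn. Right, the ratio of summed essential to summed regulatory TPM in each library, with circle, square and triangle for libraries 1, 2 and 3 and a bar for the mean: the KO libraries lie at 0.215 to 0.524 and the WT libraries at 1.02 to 1.23.

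Within the essential chains the make-up differed less clearly. *Myl1* provided 42.6%, 64.5% and 47.9% of essential chain TPM in KO and 68.4%, 60.01% and 61.6% in WT. *Myl4* provided 52.8%, 25.9% and 42.1% in KO and 29.8%, 38.2% and 36.4% in WT. Both ranges overlapped, and KO1 was the only library in which *Myl4* exceeded *Myl1*. *Myl6b* provided 4.52%, 9.62% and 10.01% in KO and 1.80%, 1.83% and 2.01% in WT, so its share was higher in every KO library although its own TPM overlapped between the groups.

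Ordered by mean TPM, the WT levels ran from *Mylpf* (2166 ± 309) through *Myl1* (1568 ± 456), *Myl4* (838 ± 114), *Myl6b* (46.1 ± 10.6), *Mylk4* (5.09 ± 1.02), *Mylk2* (4.04 ± 0.254) and *Myl2* (1.17 ± 0.249) to *Myl3* (0.0282 ± 0.00823; SD, n = 3). The ranges of *Mylpf* and *Myl1* overlapped, and those of the other neighbours did not. In KO the order was *Mylpf* (1547 ± 735), *Myl4* (284 ± 348), *Myl1* (276 ± 240), *Myl6b* (35.6 ± 19.9), *Myl2* (32.5 ± 41.0), *Mylk2* (1.97 ± 1.04), *Mylk4* (0.465 ± 0.478) and *Myl3* (0.0249 ± 0.0431). *Myl4* and *Myl1* overlapped there, as did *Myl6b* and *Myl2*. *Myl2* was below both kinase genes in WT and above both in KO.

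Among the kinases, *Mylk4* (ENSMUSG00000044951, chr13:32700827-32783954, minus strand) was lower in every KO library. It was at 8.79, 1.51 and 1.90 CPM in KO and at 49.3, 32.7 and 40.6 CPM in WT. The groups were far apart, and KO1 was again the highest KO library. The mean was 4.07 ± 4.09 CPM in KO and 40.8 ± 8.27 in WT (SD, n = 3 each), 10.04 times higher in WT, with a log2 fold change of −3.34 (SE 0.64). Without KO1 it was −4.59 (SE 0.26).

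*Mylk2* (ENSMUSG00000027470, chr2:152911352-152923068, plus strand) was at 15.6, 5.86 and 5.57 CPM in KO and at 17.9, 17.2 and 17.8 CPM in WT. The WT libraries were close together, KO1 lay just under them and KO2 and KO3 were clearly lower. The log2 fold change was −0.97 (SE 0.38), and without KO1 it was −1.63 (SE 0.17).

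The other kinases and the phosphatase that act on the regulatory chain were taken from a list of 14 genes, all tested, of which 3 rose and 1 fell (median log2 fold change 0.08, against 0.03 for all genes). Without WT1 or WT3, 2 were called. *Mylk* (chr16:34745210-35002420, plus strand), the smooth muscle and non-muscle light chain kinase, was at 27.5, 144 and 90.9 CPM in KO and at 6.68, 7.34 and 7.30 CPM in WT. It rose in all 3 KO libraries, with a log2 fold change of 3.62 (SE 0.54, adjusted p = 0.00514, edgeR), and unlike the sarcomeric genes it was lowest in KO1. The call was kept without any single library and was lost only for log2(TPM + 1) values without a filter (adjusted p = 0.0886, limma). Antisense transcripts *E130310I04Rik* and *Gm21691* overlap 4.87% and 1.99% of the exonic bases of *Mylk*, and the use of strand in the counting is not given in the sources used here.

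*Calm2* encodes calmodulin, the calcium sensor that activates these kinases. It was at 320, 462 and 395 CPM in KO and at 224, 250 and 207 CPM in WT, with no overlap, and rose by 0.79 on the log2 scale (SE 0.17, adjusted p = 0.0182, edgeR). Its call was lost without WT1 (adjusted p = 0.0924), without WT3 (0.0886) and with limma on TPM without a filter (0.117). *Ppp1r12b*, the muscle subunit that targets the phosphatase to myosin, fell by 0.72 on the log2 scale (SE 0.20, adjusted p = 0.0345, edgeR), but not past the threshold without KO2 (0.0794), KO3 (0.0982), WT1 (0.124) or WT3 (0.110), nor with limma on TPM (0.0531).

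Set side by side as TPM, the light chain kinase RNAs changed place. *Mylk2* was at 3.18, 1.32 and 1.42 TPM in KO and 4.24, 4.12 and 3.75 in WT, and *Mylk4* was at 1.02, 0.160 and 0.219 in KO and 6.25, 4.35 and 4.66 in WT. *Mylk* was at 2.23, 12.1 and 9.16 TPM in KO and 0.602, 0.650 and 0.575 in WT. *Mylk3*, the cardiac light chain kinase, was at 1.07, 2.93 and 1.4 TPM in KO and 0.679, 0.873 and 0.877 in WT, and was not called (log2 fold change 1.03, adjusted p = 0.0696, edgeR). The sum over these 4 kinases overlapped, at 7.48, 16.5 and 12.2 TPM in KO and 11.8, 9.99 and 9.87 in WT. *Mylk* made up 29.8%, 73.3% and 75.1% of that sum in KO and 5.11%, 6.51% and 5.83% in WT, while *Mylk4* made up 13.6%, 0.969% and 1.80% in KO and 53.1%, 43.5% and 47.3% in WT. *Mylk2* kept 42.4% of the sum in KO1, above its 36.1% to 41.2% in WT, and had 7.98% in KO2 and 11.6% in KO3.

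**Figure D3:**
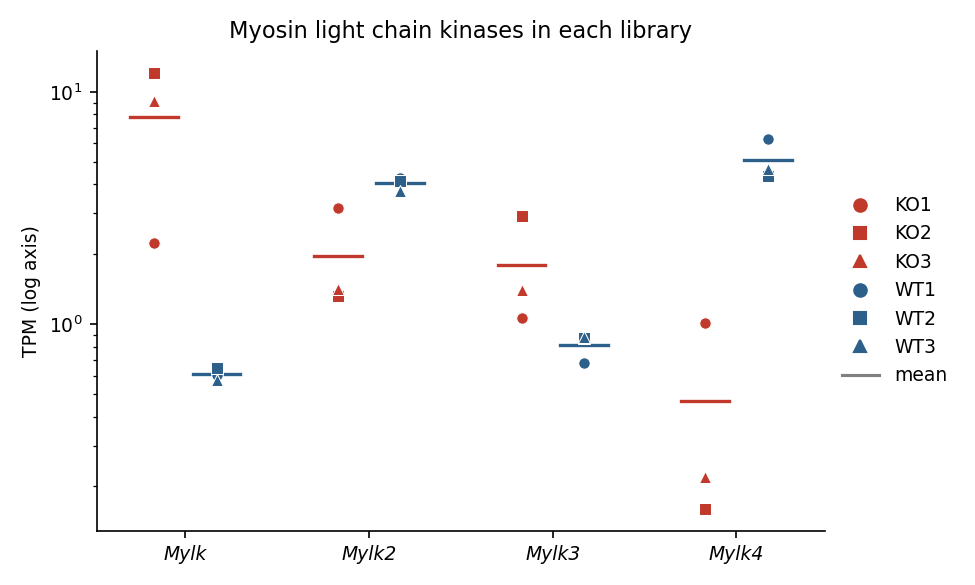
TPM (log axis) of the 4 light chain kinase genes in each KO (red) and WT (blue) library; shapes give the library and bars the mean. *Mylk* lies at 2.23 to 12.1 TPM in KO and near 0.6 in WT, *Mylk4* is lower in every KO library, and KO1 is the lowest KO library for *Mylk* but the highest for *Mylk2* and *Mylk4*.

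The other light chain genes were a list of 6, mostly chains of smooth and non-muscle myosin. Of these, 5 were tested and 0 were called (edgeR, median log2 fold change 0.04), with 2 at an unadjusted p-value under 0.05, 1 called by DESeq2 and 0 by limma on TPM. *Myl6*, the ubiquitous essential chain and the most abundant of the list, was at 551, 648 and 546 CPM in KO and at 514, 482 and 485 CPM in WT (log2 fold change 0.24, adjusted p = 0.274, edgeR). *Myl7*, the atrial regulatory chain, had at most 1 count in any library.

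Fast fibre partners of the light chains were 11 genes, and 1 of them was called, against 6 without KO1 and 0 without KO2, KO3, WT1 or WT3. *Atp2a1*, the fast calcium pump, fell by 1.0 on the log2 scale (SE 0.30, adjusted p = 0.0470, edgeR), but missed the threshold when KO2 (0.108), KO3 (0.126), WT1 (0.130) or WT3 (0.136) was left out, and with limma on TPM without a filter (0.131). *Tnnt3*, the fast troponin T and the most abundant of the list, was at 2381, 637 and 730 CPM in KO and at 1861, 1139 and 1924 CPM in WT. KO1 was above the WT range and KO2 and KO3 below it (log2 fold change −0.39, adjusted p = 0.597; −1.27, adjusted p = 0.00983 without KO1, edgeR).

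Slow fibre and heart partners were 13 genes, of which 0 rose and 2 fell, with a median log2 fold change of −1.05. The number called was 11 without KO1, 9 with no filter on low counts, 6 with limma on TPM and 5 with DESeq2. *Mybpc1*, the slow myosin-binding protein C, was at 49.8, 26.0 and 43.4 CPM in KO and at 296, 177 and 276 CPM in WT (log2 fold change −2.65, SE 0.29, adjusted p = 0.00205, edgeR). *Myh7b*, a slow-type myosin heavy chain, was at 23.5, 14.6 and 19.7 CPM in KO and at 71.8, 73.3 and 121 CPM in WT (log2 fold change −2.21, SE 0.26, adjusted p = 0.00257, edgeR). The calls of both were kept under every alternative run. *Tnnc1*, the slow and cardiac troponin C and the most abundant of the list, was not called (log2 fold change −0.30, adjusted p = 0.630, edgeR; −1.0, adjusted p = 0.00807 without KO1). *Myh7*, the heavy chain that carries *Myl2* and *Myl3* in slow fibres and ventricle, was added after its values were seen. It was at 81.1, 11.4 and 16.0 CPM in KO and at 143, 136 and 191 CPM in WT, so every KO library was lower where *Myl2* was higher (log2 fold change −2.12, adjusted p = 0.0586, edgeR).

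The 3 developmental sarcomere genes (*Myh3*, *Myh8* and *Actc1*) had a median log2 fold change of −1.18 and 0 calls with edgeR, with all 3 at an unadjusted p-value under 0.05, 2 called by DESeq2 and 3 by limma on TPM. *Actc1*, cardiac actin, which is expressed in early myotubes, was at 1248, 487 and 380 CPM in KO and at 1599, 1284 and 1827 CPM in WT (log2 fold change −1.16, adjusted p = 0.0890, edgeR). Without KO1 it was −1.86 (adjusted p = 0.00117).

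Of 17 muscle transcription factors, all tested, 3 rose and 4 fell (median log2 fold change −0.01), and 1 was called without WT1 and 1 without WT3. The largest falls were in *Mef2c* (−4.40, SE 0.95, adjusted p = 0.0169), *Myf6* (−3.58, SE 0.76, adjusted p = 0.0162) and *Vgll2* (−2.57, SE 0.56, adjusted p = 0.0170), all from edgeR. The last 2 genes had few reads. *Myf6* had 15, 3 and 2 counts in KO and 61, 44 and 118 in WT, and *Vgll2* had 14, 9 and 3 in KO and 48, 33 and 59 in WT. *Prox1*, a homeobox factor linked to the slow fibre programme, rose from 0.636, 0.305 and 1.21 CPM in WT to 6.995, 3.85 and 4.81 CPM in KO (2.85, SE 0.50, adjusted p = 0.00838, edgeR). Without KO1 the log2 fold changes were −6.35 for *Mef2c*, −5.08 for *Myf6* and −3.21 for *Vgll2*. *Mef2c* lost its call without WT3 (0.0556), *Myf6* without WT1 (0.0573) or WT3 (0.0647) or with limma on TPM without a filter (0.0585), *Vgll2* without WT1 (0.0719) or WT3 (0.0671) and *Prox1* without WT1 (0.0515). *Myog*, the most abundant factor of the list, was at 1709, 1532 and 1005 CPM in KO and at 1464, 1355 and 1244 CPM in WT (log2 fold change 0.06, adjusted p = 0.863, edgeR), with overlapping groups.

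**Figure D4:**
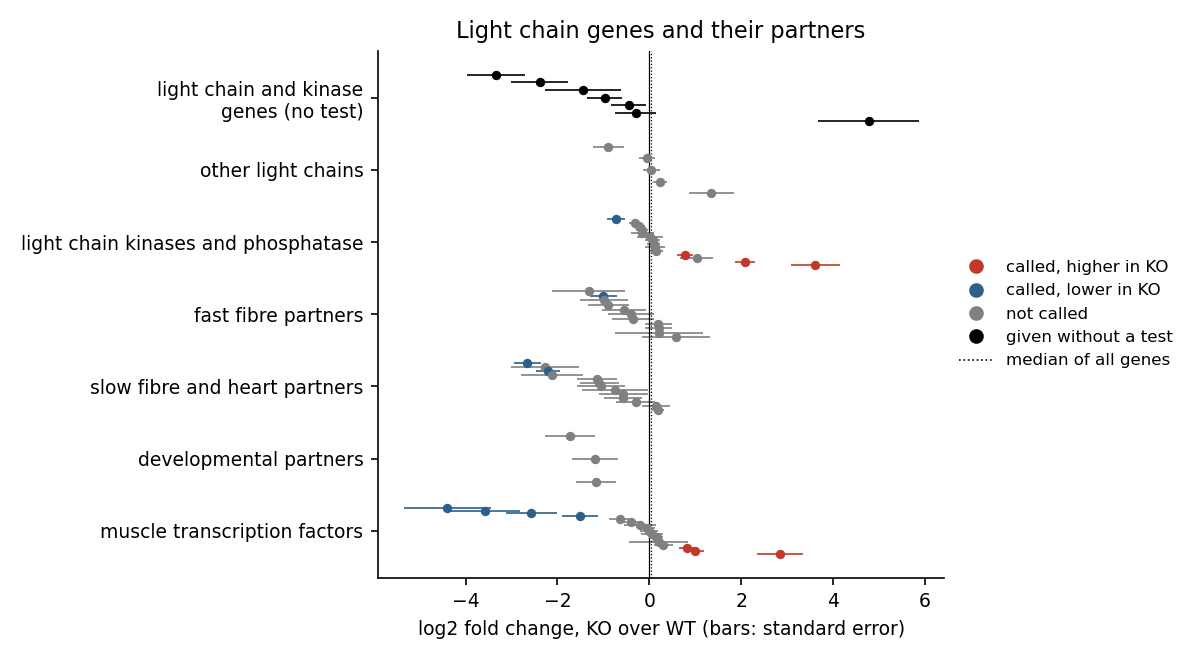
Log2 fold change of KO over WT with its standard error for each tested gene, grouped in rows by list; red and blue points were called higher and lower in KO, grey points were not called, and black points are the light chain and kinase genes, given without a test. The dotted line is the median of all tested genes (0.03); among the genes drawn, which leave out the cell type markers, *Myl2* at 4.77 and *Mylk* at 3.62 lie farthest to the right.

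Markers of other cell types were summed as TPM beside these results. For cardiomyocytes, the other cells that use *Myl2*, the sum of 8 markers was 9.03 to 13.9 TPM in KO and 18.0 to 29.6 in WT, and *Nppa*, *Nppb* and *Myl7* had at most 3 counts in any library. Of the 5 tested, 1 was called lower (*Gata4*) and 0 higher. Skeletal muscle markers, with all 7 tested, overlapped at 2656 to 4997 TPM in KO and 3168 to 4089 in WT, with 2 called higher (*Myod1* and *Cdh15*) and 0 lower. Smooth muscle markers, beside *Mylk*, overlapped at 1348 to 1669 TPM in KO and 1486 to 1862 in WT. Nearly all of that sum was *Acta2*, at 1320 to 1615 TPM in KO and 1443 to 1805 in WT. *Myh11* and *Cnn1* reached at most 0.067 and 0.34 TPM in any library, so the sum says little about smooth muscle cells. The sum of fibroblast markers was higher, at 74.1 to 151 TPM in KO and 31.0 to 57.2 in WT, with 2 of 4 tested genes called higher (*Pdgfra* and *Dpt*) and 0 lower. Its largest part, *Col6a3*, overlapped, at 41.5, 86.1 and 131 TPM in KO and 26.0, 53.9 and 38.4 in WT (adjusted p = 0.0876, edgeR). *Dcn* was at 30.0 TPM in KO1 but 2.64 and 3.15 in KO2 and KO3 (adjusted p = 0.259, edgeR). The part of fibroblast markers in the light chain differences was not tested. Adipocyte markers summed to 1.46 to 3.8 TPM in KO and 1.17 to 1.59 in WT, with *Adipoq*, *Plin1* and *Fabp4* at 3 counts or fewer throughout and 1 of 2 tested genes called higher (*Cebpa*), and leukocyte and endothelial markers to 0.994 to 1.75 in KO and 1.01 to 1.28 in WT.

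Across the 6 libraries the tested light chain and kinase genes other than *Myl2* varied together. Pearson's r of log2 CPM between any 2 of them ranged from 0.672 (*Myl6b* and *Mylk4*) to 0.987 (*Myl4* and *Mylk2*). *Myl2* had r from −0.53 to 0.14 with the others. These are descriptions over 6 points that share the genotype split and the distance of KO1 from the other KO libraries. Among 8827 genes whose mean log2 CPM reached 3, those most similar to *Myl1* included *Ppm1b* (0.9992), *Mpi* (0.9989), *Pgrmc2* (0.9985) and *Hexa* (0.9975), and 1008 genes exceeded 0.9. For *Myl2* they were *Ankle2* (0.9979), *Hecw2* (0.9938), *Hr* (0.9935), *Fitm2* (0.9920) and *Pcdh1* (0.9895), and 184 of 8828 genes exceeded 0.9. *Pcdh1*, a protocadherin, was at 119, 21.6 and 31.3 CPM in KO and at 12.5, 11.8 and 13.5 CPM in WT. Its KO libraries had the same order as for *Myl2*, which follows from its choice by correlation with *Myl2* over these libraries.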

How the data were processed

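RNA was depleted of ribosomal RNA and sequenced as read pairs. The submitters' processing notes name FastQC, Trim Galore, STAR, featureCounts, StringTie and Salmon. For these steps, versions, annotation release and use of strand are not given in the sources used here. The methods give a Salmon version only for a separate polyadenylation step. The authors deposited raw read counts per gene for all 6 libraries, without normalization, and TPM values per library from StringTie, which were summed over rows with the same gene identifier. The count table has 6 sample columns, each used here, and 0 others. The methods name GRCm39 and the processing notes mm9, but 83.2% of 45212 genes have the same chromosome, start and end as in GENCODE M21 on GRCm38, so positions are on GRCm38.

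The 8 genes and all gene lists were chosen with earlier results of these data known. Counts were TMM-scaled, filtered with filterByExpr and tested with edgeR 4.0.16 (two-sided quasi-likelihood test, genotype only, Benjamini-Hochberg over 14828 of 46078 genes, threshold 0.05) in R 4.3.3. Without adjustment, 5781 genes had a p-value under 0.05. DESeq2 1.42.0 and limma 3.58.1 on log2(TPM + 1) were alternatives, where genes needed 1 TPM in 3 libraries. The steps were tested on simulated data in which the spread between libraries was capped for every gene. That test does not show how they perform for genes that vary as much as *Myl2* among the KO libraries. The named genes were the 8 genes, every called gene of the kinase and light chain lists, up to 4 called genes with the largest absolute change in each other list, the most abundant gene of each list, the 5 genes most similar to *Myl1* and to *Myl2* (log2 CPM with a prior count of 2, without predicted-gene symbols), and *Hnrnpa2b1*. A few genes that meet this rule are not reported here and stay in the counts. Sequences came from GENCODE (read with Biopython 1.88) and RefSeq promoter windows on GRCm38. Intervals were not used, and each library held at least 33605258 counts. The spread between libraries was not set against counting error for each gene.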

Additional observations from a re-analysis of the deposited data

How the results depend on the processing

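The direction of *Myl1*, *Myl2*, *Myl4*, *Mylpf*, *Mylk2* and *Mylk4* was kept under all 13 alternatives, with log2 fold changes of −3.47 to −1.99, 2.74 to 5.30, −3.37 to −0.97, −1.02 to −0.20, −1.63 to −0.71 and −4.59 to −2.09 (for *Mylk4* the value nearest 0 came from log2(TPM + 1), where *Myl1* was at −2.80). *Myl6b* ran from −1.02 to 0.01. The median of the 7 genes was −0.97, and leaving out each library gave −1.63 (without KO1) to −0.71. The number of them past the threshold, from which nothing is read, was 3, and 7 without KO1, 0 without WT1 (edgeR; 3 at an unadjusted p-value under 0.05 there), 4 with DESeq2, 4 with limma on TPM and 1 with limma on TPM without a filter. Over all genes 3361 were called, 4373 with DESeq2, 4538 with no filter on low counts and 2394 with limma on log2(TPM + 1), and leaving out each library gave 933 (without WT1) to 4712 (without KO1). Of the 63 partner genes tested 14 were called, 22 with DESeq2, 30 with no filter on low counts, and 5 (without WT1 or WT3) to 35 (without KO1) on leaving out each library. The log2 fold change of *Myog* turned to −0.10 without KO1 and −0.03 without WT3, and was at most 0.26 without a library (KO3).

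The same replicate numbers in KO and WT did not pair the libraries: their deviations from the group means correlated at 0.137, −0.116 and 0.004. A fit with the replicate number as a block called 2520 genes, and 17 partner genes. It ended the call of *Atp2a1* (adjusted p = 0.0606, edgeR), and of the slow fibre and heart partners it called 5. The cause of these shifts was not tested. With 1 library of KO far from the others, 3 libraries a genotype limit what can be called, and the gene-level values do not separate transcript forms.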

Other observations

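*Tnnc2*, fast troponin C and a partner of the fast light chains, was singled out after its values were seen because the deposited measures disagreed on its level. It was at 0.588, 0.275 and 0.293 CPM in KO1 to KO3 and 0.636, 0.366 and 0.458 CPM in WT1 to WT3, but at 78.9, 24.2 and 14.0 TPM in KO and 33.7, 23.1 and 63.5 TPM in WT. Of its 800 exonic bases 592 (74.0%) overlap exons of *Ube2c* on the opposite strand, and *Ube2c* was at 9.57 to 19.99 CPM. The part of the overlap in the difference between the measures was not tested. None of the 8 light chain and kinase genes had more than 4.65% of its exonic bases in such an overlap.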
